A study of Mus musculus with 8 samples.

Results

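The replacement histone variants are the 10 genes H3f3a, H3f3b, H2afz, H2afv, H2afx, H2afy, H2afy2, H2afj, H1f0 and H1fx, taken by symbol from a table of 34094 genes, and all 10 were found there. They were compared in RNA from the CA1 field of the hippocampus between wild-type (WT) mice and mice labelled cko type with the genotype Brpf1 knockdown (cKO), in 4 libraries of each group. All animals were C57BL/6 mice of 2 months. How Brpf1 was reduced, in which cells, and what alleles the WT mice carried were not stated in the labels. The labels do not say which mouse gave which library, and a protocol speaks of 3 pairs of mice, so the p-values below cover only the spread among libraries, part of which may be technical.

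Canonical histones are made while a cell copies its DNA, from messages that end in a stem-loop in place of a poly(A) tail. Replacement variants are made throughout the cell cycle from polyadenylated messages, and in neurons, which no longer divide, they are the main source of new histone. H3f3a and H3f3b encode the same protein, H3.3, which is placed at active genes and regulatory elements and at telomeres. H2afz and H2afv encode the H2A.Z forms found beside transcription start sites, and H2A.Z is known as a factor that restrains memory formation in the hippocampus. H2afx encodes H2A.X, which is phosphorylated around DNA breaks. H2afy and H2afy2 encode the macroH2A proteins, whose large extra domain marks repressed chromatin such as the inactive X chromosome. H1f0 and H1fx encode linker histones that bind DNA between nucleosomes, and H1.0 builds up in differentiated cells. BRPF1, the product of the targeted gene, is a scaffold for enzymes that acetylate histone H3.

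The ends of the transcripts are shown first, since they distinguish the histone classes. In the GENCODE M21 transcripts of the mouse, H2afx was the 1 member of 10 with a match to the histone stem-loop consensus. The consensus was matched on the sense strand anywhere in a protein-coding transcript. It was present in 46 of 67 replication-dependent histone genes, the genes with Hist symbols, and in 0.453% of 21877 protein-coding genes. A poly(A) signal, AATAAA or ATTAAA on the sense strand, lay in the last 40 bases of a transcript in 8 of the 10 members, in 17 of the 67 replication-dependent genes and in 76.1% of all protein-coding genes. The H2afx match lay 822 bases before the annotated transcript end, which also had a poly(A) signal. It is printed below beside 3 replication-dependent genes that carry both elements in the annotation, with the stem-loop in capitals and 5 bases on either side.
H2afx: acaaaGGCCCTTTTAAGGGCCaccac
Hist1h1c: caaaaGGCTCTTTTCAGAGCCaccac
Hist3h2a: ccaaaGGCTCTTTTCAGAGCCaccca
Hist3h2ba: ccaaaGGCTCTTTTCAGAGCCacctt
H2afx thus carries both elements in its annotated sequence, while the other 9 members had no match to the stem-loop in these transcripts.

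Promoter windows from 250 bases before to 50 bases after the start were matched in RefSeq for 9 of the 10 members, all except H2afx. They held 17 to 40 CpG dinucleotides, with a median of 29, against a median of 7 over all 32851 windows of the same length. CCAAT, searched on both strands, was present in 6 of the 9 windows and in 37.4% of all windows. The GC box GGGCGG, searched on both strands, was present in 7 of the 9 and in 35.7% of all windows. TATAAA was present on either strand in 1 of the 9, H3f3b, and in 13.6% of all windows, and TGACGTCA in 0 of the 9 and 1.79%. Each motif was counted on its own, so matches of different motifs may overlap, and a match is a description of the sequence only. A match that overlaps an earlier match of the same motif was not counted. The windows of the H3.3 pair and the macroH2A pair are printed here because the ratio of the genes within each pair is described below. Capitals mark the counted matches to any of these motifs on either strand.
H3f3a (GRCm38.p6, chr1:180813556-180813855, minus strand): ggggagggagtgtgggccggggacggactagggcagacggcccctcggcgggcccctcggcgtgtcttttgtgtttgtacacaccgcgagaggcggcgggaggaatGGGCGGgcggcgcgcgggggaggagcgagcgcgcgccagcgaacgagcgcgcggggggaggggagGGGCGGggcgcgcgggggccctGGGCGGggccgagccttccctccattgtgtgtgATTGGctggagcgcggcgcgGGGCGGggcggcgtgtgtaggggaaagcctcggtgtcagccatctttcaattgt
H3f3b (GRCm38.p6, chr11:116024455-116024754, minus strand): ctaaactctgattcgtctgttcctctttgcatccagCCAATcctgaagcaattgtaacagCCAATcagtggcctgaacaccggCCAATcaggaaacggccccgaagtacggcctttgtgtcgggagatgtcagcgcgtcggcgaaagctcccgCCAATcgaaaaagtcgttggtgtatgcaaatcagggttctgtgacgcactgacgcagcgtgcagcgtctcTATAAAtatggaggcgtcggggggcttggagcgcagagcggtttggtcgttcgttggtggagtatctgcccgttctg
H2afy (GRCm38.p6, chr13:56135501-56135800, minus strand): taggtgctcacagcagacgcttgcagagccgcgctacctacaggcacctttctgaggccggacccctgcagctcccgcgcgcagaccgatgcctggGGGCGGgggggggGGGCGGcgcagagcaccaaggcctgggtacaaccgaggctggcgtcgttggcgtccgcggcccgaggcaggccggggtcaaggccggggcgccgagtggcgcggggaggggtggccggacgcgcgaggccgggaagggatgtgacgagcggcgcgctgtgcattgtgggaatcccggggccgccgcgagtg
H2afy2 (GRCm38.p6, chr10:61783815-61784114, minus strand): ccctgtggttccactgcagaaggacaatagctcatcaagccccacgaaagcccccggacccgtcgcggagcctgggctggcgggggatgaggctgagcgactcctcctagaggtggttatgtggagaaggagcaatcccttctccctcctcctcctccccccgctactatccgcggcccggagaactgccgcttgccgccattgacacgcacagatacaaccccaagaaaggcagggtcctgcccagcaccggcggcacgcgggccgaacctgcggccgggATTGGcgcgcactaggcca
H3f3a and H3f3b encode the same protein from unlike promoters. The H3f3a window held 4 GC boxes counted without overlap, 1 CCAAT match and 39 CpG. The H3f3b window held 0 GC boxes, 4 CCAAT matches, the TATAAA match and 24 CpG. H2afy had 2 GC boxes and 37 CpG, and H2afy2 had 1 CCAAT match and 23 CpG.

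Reads on genes ranged from 42346644 to 49897832 in the WT libraries and from 40330226 to 46559795 in the cKO libraries. Values are normalized reads, that is, reads after division by a size factor for each library, and fold changes were taken after adding 1 and a log2 transform. Brpf1 itself averaged 1415 ± 55.1 normalized reads in the WT group and 945 ± 87.3 in the cKO group (SD, n = 4), and the groups did not overlap. All 8 CA1 pyramidal markers listed were detected in every library, with summed normalized reads of 25267 to 34787 in WT and 31093 to 37273 in cKO. These 8 did not lean 1 way, with 5 negative and 3 positive log2 fold changes and a median of −0.037. Of the 3 positive ones 2 had an unadjusted limma p under 0.05. Marker lists of several cell types leaned 1 way on average, with 0 markers past limma over all genes and overlapping sums in each of these lists. All 7 pan-neuronal markers were higher in cKO, 5 with an unadjusted p under 0.05 (8.67% of all genes tested), with summed reads of 215417 to 243089 in WT and 242697 to 279313 in cKO. Of the 10 oligodendrocyte markers all had lower means in cKO and 3 had an unadjusted p under 0.05 (121031 to 177607 against 98431 to 152584). The same held for 8 of 8 choroid plexus markers, 1 with such a p (5202 to 164398 against 10535 to 47184, with the lowest sum in WT replicate 1), and for 6 of 6 ependymal markers, 3 with such a p (1140 to 2080 against 1036 to 1371). All 7 microglia markers had higher means, 2 with such a p (12509 to 13818 against 12316 to 16270, with the lowest sum in cKO replicate 1). The authors' own comparison gave an FDR under 0.05 to 2 of the 10 oligodendrocyte markers, against 0.657% of all genes. It gave such an FDR to 0 pan-neuronal, choroid plexus, ependymal or microglia markers. Taken singly, 3 of the 7 pan-neuronal, 2 of the 10 oligodendrocyte and 1 of the 6 ependymal markers had groups that did not overlap. That held for 0 choroid plexus and 0 microglia markers, and for 4.92% of all genes tested. No marker in these lists, nor in the astrocyte, endothelial and cycling cell lists, was at 0 in any library. The part of these differences in the results below was not tested, and in tissue RNA fewer cells of a type and less RNA per cell cannot be told apart.

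The replacement variants differed little between the genotypes. H2afy2, the gene of macroH2A2, showed the largest difference, with 1.30-fold more normalized reads in cKO than in WT and no overlap between the groups. H2afx, H3f3b and H2afv were 1.18-fold, 1.12-fold and 1.10-fold higher in cKO on average, with overlapping groups. H3f3a and H2afz were lower, at 0.897-fold and 0.925-fold, also with overlap. No member passed limma over all genes.

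By that test (adjusted p under 0.05, Benjamini-Hochberg over 26135 genes) 0 of the 10 members were called, and 5 genes in all (0.0191%). Brpf1 was not among the 5. limma-voom on the recovered reads also called 0 of the 10. At an unadjusted limma p under 0.05, 1 of the 10 members passed, H2afy2, against 8.67% of all genes tested (4.07% higher and 4.6% lower in cKO) and 11.2% of the 11842 genes whose mean log2 value was 8 or more, the range in which all 10 members lie. A share of 1 in 10 is near that background. A positive log2 fold change was found for 8 of the 10, against 47.3% of all genes tested and 56.3% of those whose mean log2 value was 8 or more. The median log2 fold change of the members was 0.11, against −0.018 over all genes tested and 0.025 over those whose mean log2 value was 8 or more. With upper-quartile scaling, which moved the median of all genes to −0.10, 7 of the 10 members were positive and their median was 0.024.

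**Figure D1:**
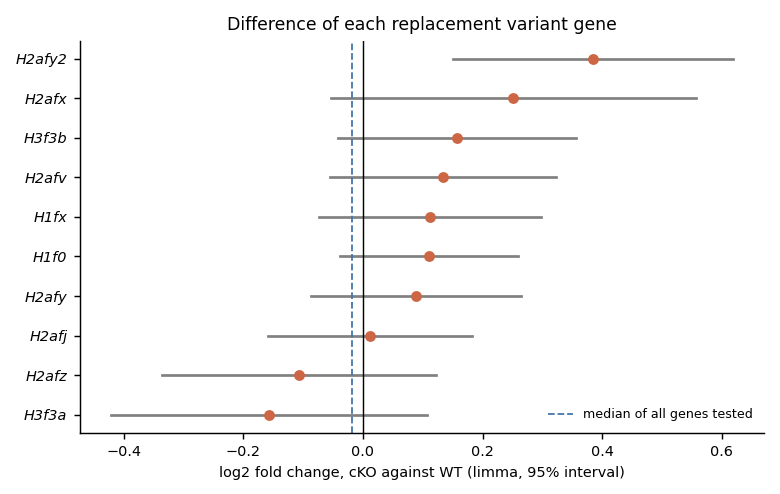
Log2 fold change of each member, cKO against WT, on the horizontal axis, with limma's 95% interval as a bar, and the median of all genes tested (−0.018) as a dashed line. The interval of H2afy2, 0.15 to 0.62, lies above 0, and those of the other 9 genes include 0.

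The H3.3 genes leaned in opposite directions. H3f3a (ENSMUSG00000060743) had 7002, 8844, 6533 and 6863 normalized reads in WT replicates 1 to 4 and 5948, 7780, 6781 and 5733 in cKO replicates 1 to 4. WT replicate 2 stood above the other 7 libraries, and 2 cKO libraries lay below all WT libraries. H3f3a differed by a log2 fold change of −0.16 (SE 0.119, 95% interval −0.42 to 0.11, limma adjusted p = 0.720). Single libraries set much of its size, which was −0.06 without WT replicate 2, −0.10 without cKO replicate 4, −0.24 without cKO replicate 2 and −0.24 with upper-quartile scaling. H3f3b (ENSMUSG00000016559) had 5493, 5735, 6189 and 5914 in WT and 6045, 7741, 6276 and 6073 in cKO. Its cKO replicate 2 stood above all other libraries, while 2 other cKO libraries lay within the WT range. This gave a log2 fold change of 0.16 (SE 0.0900, 95% interval −0.04 to 0.36, limma adjusted p = 0.633), which was 0.07 without cKO replicate 2 and 0.07 with upper-quartile scaling. Summed over both genes, H3.3 reads averaged 13143 ± 965 in the WT group and 13094 ± 1709 in the cKO group (SD, n = 4), a difference far smaller than the spread between libraries.

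Reads of H3f3a are partly uncertain because near copies exist. The longest run of bases that H3f3a transcripts share exactly was 267 with H3f3c, 155 with H3f3a-ps2 and 110 with H3f3a-ps1, but 23 with H3f3b. H3f3c averaged 243 ± 28.5 normalized reads in the WT group and 237 ± 27.3 in the cKO group, H3f3a-ps2 had 158 ± 34.6 and 147 ± 15.3, and H3f3a-ps1 had 15.4 ± 4.09 and 20.0 ± 3.84 (SD, n = 4). Together these copies made up 5.41% of the summed reads of the 4 genes in WT and 5.84% in cKO. With them added, H3f3a had 7727 ± 1074 and 6964 ± 956. The opposite-strand gene H3f3aos, which overlaps H3f3a by 168 bases, had 65.6 ± 21.7 and 57.2 ± 16.3.

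The H2A.Z genes also leaned apart. H2afz (ENSMUSG00000037894) had 4399, 3667, 3207 and 4079 normalized reads in WT and 3385, 3795, 3747 and 3267 in cKO. All 4 cKO values fell inside the WT range. Its log2 fold change was −0.11 (SE 0.104, 95% interval −0.34 to 0.12, limma adjusted p = 0.792). It was −0.04 without WT replicate 1, −0.07 without cKO replicate 4, −0.19 without WT replicate 3 and −0.19 with upper-quartile scaling. H2afv (ENSMUSG00000041126), whose product is the second H2A.Z form, had 1281, 1368, 1170 and 1186 in WT and 1267, 1438, 1431 and 1354 in cKO. Replicates 2 and 3 of the cKO lay above all WT libraries. The log2 fold change of H2afv was 0.13 (SE 0.0855, 95% interval −0.05 to 0.32, limma adjusted p = 0.664), and 0.05 with upper-quartile scaling. H2A.Z reads summed to 5089 ± 544 in the WT group and 4921 ± 329 in the cKO group (SD, n = 4), within the spread.

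H2afx (ENSMUSG00000049932), the gene whose transcript carries the stem-loop printed above, varied most between WT libraries. It had 689, 831, 1109 and 814 normalized reads in WT and 915, 985, 1101 and 1047 in cKO. WT replicate 3 was the highest of all 8 libraries, and the other 3 WT libraries lay below every cKO library. The SD of its log2 values was 0.29 in WT and 0.12 in cKO, against a median SD of 0.11 over the 10 members in WT. On the log2 scale the difference was 0.25 (SE 0.138, 95% interval −0.05 to 0.56, limma adjusted p = 0.620), and the two-sided exact permutation p was 0.200. Without WT replicate 3 the difference was 0.38 (limma adjusted p = 0.361) and its unadjusted p was under 0.05, while it was 0.15 without WT replicate 1 and 0.16 with upper-quartile scaling. Over the 16 alternatives the limma adjusted p of H2afx ranged from 0.361 to 0.827. H2afx transcripts share an exact run of 117 bases with those of the replication-dependent gene Hist1h2ac, so some reads of either gene could be placed on the other.

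H2afj (ENSMUSG00000060032), whose product H2A.J is a variant known to build up in senescent cells, had the smallest difference between the groups. It had 1330, 1370, 1194 and 1356 normalized reads in WT and 1314, 1307, 1326 and 1337 in cKO, all 4 of the latter within the WT range. Its log2 fold change was 0.01 (SE 0.0769, limma adjusted p = 0.986), with a 95% interval of −0.16 to 0.18. The sign turned negative under 5 of 16 alternatives.

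The macroH2A genes both had higher means in cKO, by more for H2afy2 than for H2afy. H2afy2 (ENSMUSG00000020086) had 460, 506, 585 and 524 normalized reads in WT and 672, 703, 624 and 706 in cKO. Every cKO library lay above every WT library, with the closest values in cKO replicate 3 and WT replicate 3. The means were 519 ± 51.7 and 676 ± 38.0 (SD, n = 4), and the two-sided exact permutation p was 0.0286, which is the lowest p possible with 4 libraries in each group. The groups did not overlap at 1285 of the genes tested (4.92%, with 2.57% higher in cKO) and at 6.39% of those whose mean log2 value was 8 or more. On the log2 scale H2afy2 was higher by 0.39 (SE 0.106, 95% interval 0.15 to 0.62), and with a limma adjusted p of 0.496 it did not pass. The authors' deposited table gives H2afy2 a p-value of 0.000247 and an FDR of 0.0430, and 224 of its 34094 genes (0.657%) have an FDR under 0.05, 0.352% with a higher level in cKO. In the authors' deposited table the FDR of the other 9 members lay between 0.643 and 0.993. The adjusted limma p of H2afy2 ranged from 0.326 to 0.777 over 16 alternatives, and its log2 fold change from 0.30 to 0.45.

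H2afy (ENSMUSG00000015937), the gene of macroH2A1, had 2359, 2578, 2777 and 2504 normalized reads in WT and 2800, 2476, 2855 and 2732 in cKO. The groups overlapped, with 2 cKO libraries above all WT libraries and cKO replicates 2 and 4 inside the WT range. The log2 fold change was 0.09 (SE 0.0794, 95% interval −0.09 to 0.26, limma adjusted p = 0.766). It was 0.05 without WT replicate 1, 0.04 with quantile normalization and 0.0013 with upper-quartile scaling. Summed over both macroH2A genes, normalized reads averaged 3073 ± 224 in the WT group and 3392 ± 143 in the cKO group (SD, n = 4). H2afy overlaps the antisense gene Gm47071 by 11231 bases of gene span. Gm47071 averaged 59.1 ± 56.2 normalized reads in the WT group and 77.7 ± 43.0 in the cKO group. H2afy2 overlaps the protein-coding gene Aifm2 by 596 bases on the opposite strand. Aifm2 averaged 284 ± 38.5 normalized reads in the WT group and 217 ± 64.9 in the cKO group, the opposite lean to that of H2afy2, with a limma adjusted p of 0.607. The library kit keeps strand, but whether the counting used it was not stated.

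The linker histone genes had slightly higher means in cKO, and nearly equal ones with upper-quartile scaling, where the log2 fold change was 0.02 for H1f0 and 0.03 for H1fx. H1f0 (ENSMUSG00000096210) had 5761, 5708, 5830 and 6400 normalized reads in WT and 6140, 6532, 6678 and 6219 in cKO. Only WT replicate 4 reached into the cKO range. Its log2 fold change was 0.11 (SE 0.0674, 95% interval −0.04 to 0.26, limma adjusted p = 0.653), and 0.06 with quantile normalization. H1fx (ENSMUSG00000044927) had 1213, 1137, 1289 and 1365 in WT and 1321, 1314, 1336 and 1431 in cKO, where again WT replicate 4 alone lay inside the cKO range. The log2 fold change of H1fx was 0.11 (SE 0.0838, 95% interval −0.07 to 0.30, limma adjusted p = 0.712), and 0.07 without WT replicate 2. The antisense gene Gm5577 overlaps H1fx by 755 bases and averaged 272 ± 46.3 reads in the WT group and 268 ± 73.5 in the cKO group. Antisense to H1f0, Gm49544 overlaps it by 163 bases and averaged 17.0 ± 4.91 and 35.5 ± 17.2 reads. Linker histone reads summed to 7176 ± 408 in the WT group and 7743 ± 240 in the cKO group (SD, n = 4).

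**Figure D2:**
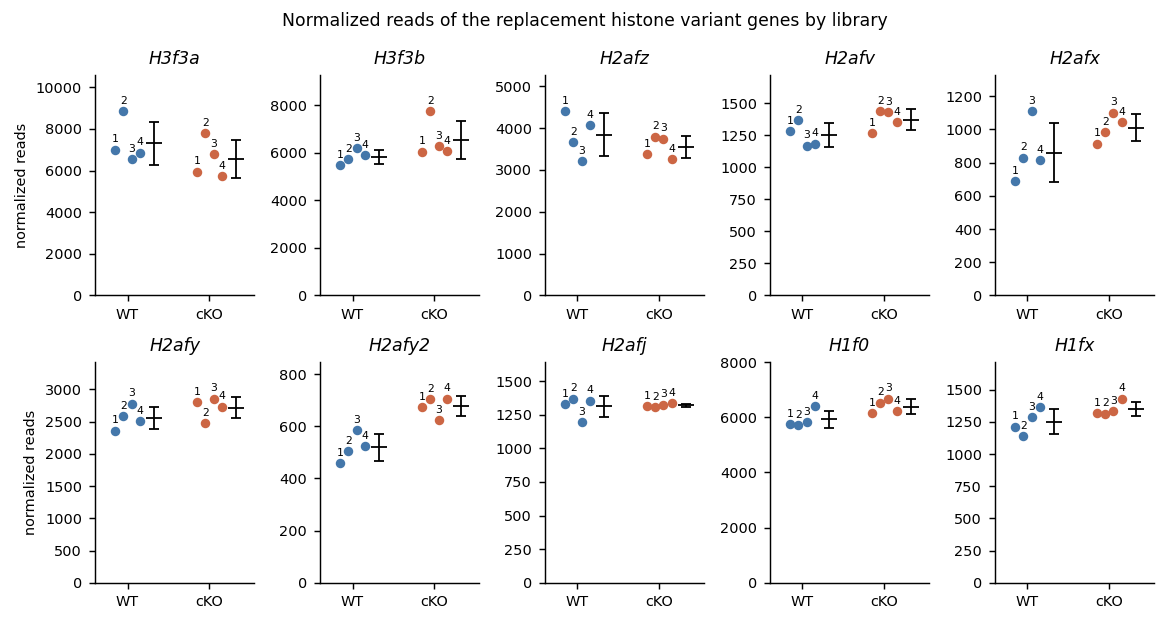
Normalized reads of each member (vertical axes from 0, each with its own range) in the 4 WT and 4 cKO libraries, with replicate numbers at the points and the mean ± SD to the right of each group. The groups separate for H2afy2, at 460 to 585 in WT and 624 to 706 in cKO, and overlap for the other 9 genes.

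Levels can be compared between genes only per length, here as normalized reads per kilobase of annotated exon (GENCODE M21 basic). H2afz was highest in WT at 3590 ± 483 per kilobase (SD, n = 4), followed by H1f0 at 2883 ± 156, H3f3a at 2436 ± 347 and H3f3b at 2320 ± 117. Each of these had a range over WT libraries that overlapped that of the next. H2afy at 1195 ± 81.3 and H1fx at 1028 ± 80.9 overlapped each other and lay apart from the genes above and below. H2afv at 766 ± 56.3, H2afj at 717 ± 44.2 and H2afx at 622 ± 128 overlapped, and H2afy2 at 238 ± 23.8 per kilobase lay below all others. In cKO the order differed in that H3f3b (2599 ± 323 per kilobase) was above H3f3a (2186 ± 310), and H2afx (731 ± 58.1) above H2afj (721 ± 7.23), both with overlapping ranges. The annotated exon length need not match the transcript ends used in CA1.

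Because genes of a pair were read in the same library, their ratio does not depend on the size factor. The log2 ratio of H3f3a to H3f3b was 0.35, 0.62, 0.08 and 0.21 in WT and −0.02, 0.01, 0.11 and −0.08 in cKO. In cKO the reads of both genes were nearly equal in every library, while WT libraries ranged from near equality in replicate 3 to 1.54 times as many H3f3a reads in replicate 2. The mean difference was −0.31, and −0.21 without WT replicate 2.

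The log2 ratio of H2afz to H2afv was 1.78, 1.42, 1.45 and 1.78 in WT and 1.42, 1.40, 1.39 and 1.27 in cKO. The groups just failed to touch, since WT replicate 2, with 2.68 H2afz reads per H2afv read, nearly met cKO replicate 1 with 2.67. WT replicates 1 and 4 were high and the other 6 libraries close together. The log2 ratio of H2afy to H2afy2 was 2.36, 2.35, 2.25 and 2.26 in WT and 2.06, 1.82, 2.19 and 1.95 in cKO, with no overlap. This ratio was even in WT (2.30 ± 0.060) and more spread in cKO (2.01 ± 0.16, SD, n = 4). The log2 ratio of H1f0 to H1fx was the same within the spread, 2.25 ± 0.063 in WT and 2.24 ± 0.095 in cKO. The macroH2A ratio rests on the same H2afy2 reads whose groups did not overlap above, so it is not a separate result. These ratios are given as a description, with no test, and how often ratios of other gene pairs fail to overlap was not computed.

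**Figure D3:**
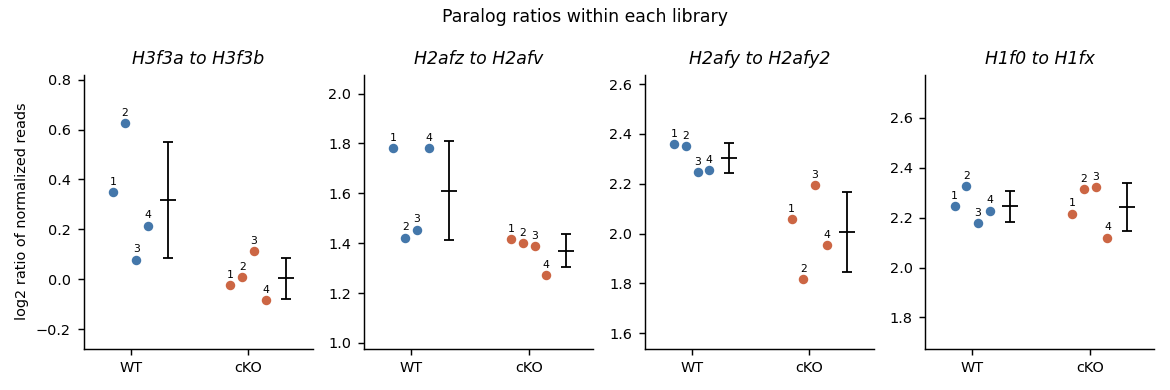
Log2 ratio of normalized reads for 4 paralog pairs in each WT and cKO library (vertical axes of equal height, not from 0), with replicate numbers at the points and the mean ± SD beside each group. The macroH2A ratio is 2.25 to 2.36 in WT and 1.82 to 2.19 in cKO, and the H1 ratio overlaps throughout.

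All 10 members together averaged 30655 ± 885 normalized reads in the WT group and 31482 ± 2039 in the cKO group (SD, n = 4), with overlapping groups. Without cKO replicate 2, the library with the highest sum, the mean difference of 828 reads became −34.9, and with upper-quartile scaling −1036. It was 1387 without cKO replicate 1 and 1356 without cKO replicate 4. The 67 replication-dependent histone genes in the table averaged 8083 ± 407 reads in the WT group and 7144 ± 430 in the cKO group, and here the groups did not overlap. Of the reads on these 10 and 67 genes together, the replacement variants therefore took 79.1% ± 0.70 in WT and 81.5% ± 1.65 in cKO. The share was 78.1% to 79.8% in the WT libraries and 80.2% to 83.9% in the cKO libraries. Histone genes outside both classes, such as H3f3c and Cenpa, were not counted. The replacement part of this share overlapped between the groups, and the replication-dependent part did not. Reads of canonical messages in an mRNA library need not reflect their full amount, since most lack a poly(A) tail, and the lower level of that list in cKO was known when this share was chosen.

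**Figure D4:**
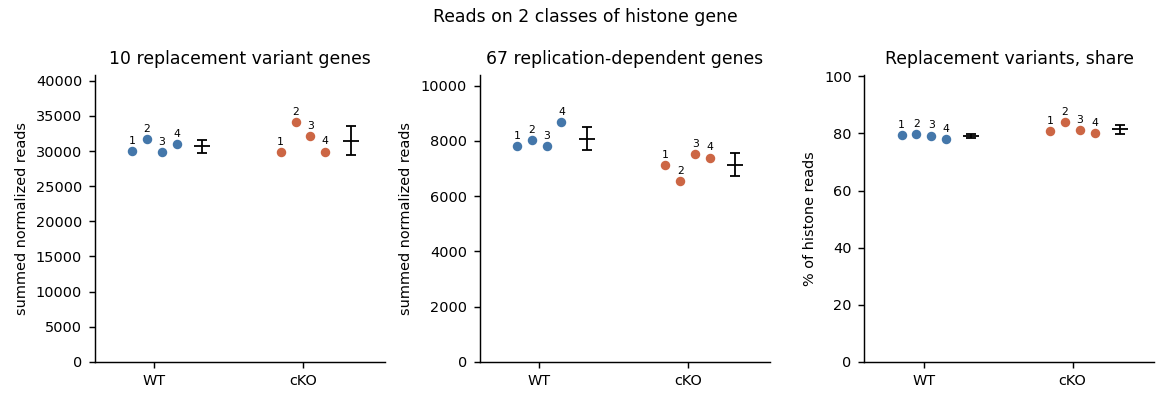
Summed normalized reads of the 10 replacement variant genes and of 67 replication-dependent histone genes, and the share of the former in the reads of both (%), in each library (axes from 0, mean ± SD beside each group). The replacement sums overlap, and the replication-dependent sums, 7804 to 8671 in WT and 6550 to 7516 in cKO, do not.

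The libraries did not order the members in 1 common way. WT replicate 1 was the lowest WT library for H3f3b, H2afx, H2afy and H2afy2 and the highest for H2afz, and WT replicate 3 was the reverse, highest for those 4 and lowest for H2afz, H3f3a, H2afv and H2afj. Among the cKO libraries replicate 2 was the highest for H3f3a, H3f3b, H2afz and H2afv, and replicate 1 was the highest for no member. Outside the members, the 5 genes whose log2 values were most like the mean standardized profile of the members were C1qbp (Pearson r = 0.988), Mcrip1 (0.974), B4galt7 (0.964), Emc4 (0.961) and Ak1 (0.958). These were the highest of 11156 genes compared over 8 libraries, which share size factors and tissue makeup, so the r values are a description. Several members did not follow the mean profile themselves. Their own r with it ran from −0.146 (H2afz) and −0.028 (H3f3a) to 0.888 (H1f0).

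The machinery that places, removes and reads these variants was examined through 5 gene lists. Of 70 genes listed 68 were in the table and tested, and 0 passed limma over all genes. At an unadjusted p under 0.05, 7 of the 68 passed, 4 higher and 3 lower in cKO, close to the background of 8.67%. limma-voom on the recovered reads also called 0 of the 68, with 8 at an unadjusted p under 0.05. The groups did not overlap for 3 that were higher and 3 that were lower in cKO, against 4.92% of all genes tested and 6.39% of those whose mean log2 value was 8 or more.

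Genes for H3.3 deposition had a median log2 fold change of −0.027, with 4 of 10 positive, and this median became 0.031 without cKO replicate 3, −0.084 without cKO replicate 2 and −0.11 with upper-quartile scaling. Ubn2, a subunit of the HIRA chaperone complex, had 5033 ± 245 normalized reads in the WT group and 4203 ± 545 in the cKO group (SD, n = 4, log2 fold change −0.27, limma adjusted p = 0.512). Hira, the chaperone itself, had a log2 fold change of 0.13 (limma adjusted p = 0.608). Atrx and Daxx, which place H3.3 at telomeres and repeats, had −0.20 and 0.24 (limma adjusted p = 0.592 and 0.711). The signs thus differed within both chaperone systems.

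In the list for H2A.Z exchange 14 of 18 genes were positive, with a median log2 fold change of 0.10. Dmap1, a subunit of the SRCAP and TIP60 complexes, had 594 ± 16.3 normalized reads in the WT group and 711 ± 47.1 in the cKO group, with no overlap between groups (log2 fold change 0.26, limma adjusted p = 0.512). Vps72, which binds H2A.Z during its exchange, had 767 ± 83.8 and 938 ± 99.5 (0.29, limma adjusted p = 0.529). Epc2 and Morf4l1, of the TIP60 complex, had 2717 ± 205 and 11444 ± 225 in the WT libraries against 3001 ± 135 and 12266 ± 750 in cKO. The median of this list was 0.015 with upper-quartile scaling.

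H2A.X signalling genes were centred near 0, with 4 of 13 positive and a median log2 fold change of −0.021, which was −0.11 with upper-quartile scaling. Prkdc, a kinase that phosphorylates H2A.X at breaks, had 2833 ± 106 normalized reads in the WT group and 2567 ± 176 in the cKO group, with every cKO library below every WT library (log2 fold change −0.14, limma adjusted p = 0.605). Mdc1, which binds the phosphorylated form, had 947 ± 77.4 and 867 ± 55.9, and the kinase Atr had 1226 ± 125 and 1142 ± 82.1. Eya1, of a phosphatase family that acts on H2A.X, had 633 ± 166 and 790 ± 185.

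General chaperones and other variants had 11 of 15 positive values and a median log2 fold change of 0.054, which was −0.033 with upper-quartile scaling. Cenpa, the centromeric H3 variant, had 84.4 ± 13.3 normalized reads in the WT group and 113 ± 8.19 in the cKO group, without overlap (log2 fold change 0.42, limma adjusted p = 0.574). The FACT subunit Ssrp1 had 3948 ± 468 and 4465 ± 198, and the nucleosome assembly genes Nap1l2 and Nap1l4 had 4602 ± 273 and 4355 ± 142 in the WT libraries against 5064 ± 459 and 4657 ± 62.6 in cKO. The groups of Nap1l4 did not overlap.

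Readers and partners of the variants had 7 of 12 positive values and a median log2 fold change of 0.021, which was −0.066 with upper-quartile scaling and −0.041 without WT replicate 3. Zmynd8, a reader of acetylated and methylated H3, had 4525 ± 183 normalized reads in the WT group and 3981 ± 169 in cKO, and Pwwp2a, which binds H2A.Z nucleosomes, had 809 ± 58.0 and 686 ± 75.9 (SD, n = 4). Every cKO library lay below every WT library for both, and the limma adjusted p was 0.515 and 0.574. Hp1bp3, a protein related to linker histones, had 9176 ± 731 and 10535 ± 414 (log2 fold change 0.20, limma adjusted p = 0.515), and the acetyl-histone reader Brd2 had 5758 ± 334 and 6468 ± 514.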

How the data were processed

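RNA-seq libraries (4 WT, 4 cKO) were made from CA1 tissue with a stranded mRNA kit, per the labels. The submitters' processing notes name DESeq2, STAR, StringTie and the build mm9, without roles or versions. The authors deposited log2 values per gene and library, which match log2(reads / size factor + 1), because 100% of the values gave whole reads (tolerance 0.001 reads). Columns for the authors' own comparison give a log2 difference, a p-value and an FDR. Genes reaching 1 normalized read in 4 or more libraries (26135) were tested with limma 3.58.1 in R 4.3.3 (trend, robust, pseudocount 1, no covariate). The procedure was first tested on simulated data, with changes larger than any member showed, so differences of the members' size were not tried. edgeR and DESeq2, planned for counts, were not run on these log2 values. The members and lists were chosen with earlier results of these data known. Named genes are the members, Brpf1, the 4 genes of each list with the smallest limma p and the 5 genes most like the members. Transcripts and exon lengths came from GENCODE M21 and promoters from RefSeq, both GRCm38, matched through symbols and synonyms. Alternatives were quantile normalization, no filter, a minimum of 10, array weights, a replicate block, a pseudocount of 0.1 and leaving out each library. After seeing the data, limma-voom on the recovered reads and upper-quartile scaling were added. matplotlib 3.10.9 drew the figures.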

Additional observations from a re-analysis of the deposited data

Results flagged for a closer look

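Over 32 groups of 4 values (each member, the paralog ratios and the class sums, in WT and in cKO) 1 had a single library far from the other 3. H3f3b in cKO replicate 2 had 7741 normalized reads, while the other cKO libraries had 6045 to 6276. The gap to the nearest was 0.864 of the whole range, above Dixon's 95% critical value for groups of 4. Chance alone flags about 1 in 20 such groups.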

How the results depend on the processing

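With 4 libraries a group, the 95% intervals of 9 of the 10 members included 0, and 0 of the 10 members passed under any of the 16 alternatives. The count of genes called in all, 5, became 8 with array weights and ranged from 4 to 7 when 1 library was left out. Same-numbered libraries did not deviate together (r from −0.018 to 0.059 over 16721 genes), and 0 of the 4 WT libraries correlated best with its own number. Such correlations over many genes cannot exclude that the numbers mark pairs of mice, and the labels do not say. With the replicate block the count of all genes called was 2, and members with an unadjusted p under 0.05 were 2, H2afx and H2afy2. That member count was 1 to 2 when 1 library was left out, with 2 without WT replicate 3, the same genes as under the block. H2afy2 had an unadjusted p under 0.05 and a positive sign under all 16. Because its groups did not overlap, leaving out 1 library could not change that sign. H2afj reversed to −0.0073 with quantile normalization, −0.00083 with array weights, −0.0051 with limma-voom, −0.076 with upper-quartile scaling and −0.033 without WT replicate 3, and ranged up to 0.033 (without WT replicate 2) when 1 library was left out. The summed reads of the 10 members changed from a difference of 828 to −1036 with upper-quartile scaling. Such scaling divides all genes of a library by the same factor, and the median log2 fold change of all genes moved from −0.018 to −0.10. Why the size factors of the scalings differ was not tested. With that scaling the members' log2 fold changes ran from −0.24 (H3f3a) to 0.30 (H2afy2). The ratio differences of the H3.3, H2A.Z and macroH2A pairs were negative under all 9 alternatives run for them (a pseudocount of 1 and leaving out each library), and that of the linker pair changed sign within −0.03 and 0.04. For the H2A.Z and macroH2A ratios, whose groups did not overlap, leaving out 1 library could not change the sign, so this shows nothing further. The edgeR and DESeq2 alternatives, TMM scaling among them, were not run.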
